A study of Homo sapiens with 18 samples.

Results

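Depletion of PRMT5 and depletion of HP1γ were compared directly in dexamethasone-treated triple-negative breast cancer (TNBC) cells, without a control siRNA in the contrast. The comparison was chosen by the siRNA and treatment named in the labels, and rests on 6 of the 18 libraries of the series. These are 3 libraries of siPRMT5 cells with Dex and 3 libraries of siHP1γ cells with Dex. All libraries came from MDA-MB-231, an established human TNBC cell line of mesenchymal type, grown in medium with charcoal-stripped serum. Cells received 25 nM of a SMART-pool siRNA for 48 h, against PRMT5 (siPRMT5), against CBX3, the gene of HP1γ (siHP1γ), or of a non-specific sequence (siNS). They were then treated for 8 h with 100 nM dexamethasone (Dex), a synthetic glucocorticoid (GC), or with the vehicle ethanol (Eth). Each condition had 3 libraries, from biological replicates. One cell line and 1 siRNA pool per target were used, so the effect of losing a target and any effect of the same pool on other transcripts cannot be told apart. In bulk RNA, fewer cells expressing a gene and less RNA per cell cannot be told apart either.

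The glucocorticoid receptor (GR) is a nuclear receptor that, once bound by a GC, enters the nucleus and activates or represses genes together with coregulators. PRMT5 is the main enzyme that dimethylates arginines symmetrically, in histones and in splicing proteins among others, and HP1γ is a chromodomain protein that reads methylated lysine 9 of histone H3 and is also found along transcribed genes. The study examined both as coregulators of GR in cell migration. The direct comparison asks which genes, with GR activated, depend on one protein differently from the other.

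The 6 libraries held 10225497, 12472381 and 9014181 counts in siPRMT5 Dex, and 12327634, 9953398 and 10244205 in siHP1γ Dex, within the range of 8682992 to 12472381 of the whole series. The unit of all levels is CPM, in which raw counts are divided by library size after correction with edgeR's TMM factors. Differences are log2 fold changes of siPRMT5 Dex over siHP1γ Dex, so that a positive value means a higher level in siPRMT5 cells. They come from edgeR's quasi-likelihood test over 15298 genes, and a gene was called at an adjusted p under 0.05 (Benjamini-Hochberg), with the standard error (SE) of the log2 fold change beside it. PRMT5 was at 11.5, 10.6 and 9.39 CPM in the siPRMT5 Dex libraries and at 177, 199 and 189 CPM in siHP1γ Dex (log2 fold change -4.16, SE 0.0972, adjusted p = 9.46e-21). CBX3 was at 258, 288 and 227 CPM in siPRMT5 Dex and at 15.8, 13.98 and 11.4 CPM in siHP1γ Dex (log2 fold change 4.22, SE 0.105, adjusted p = 2.22e-20). Each target was therefore low in the libraries labelled with its own siRNA, without overlap (exact two-sided permutation test, p = 0.1 for both, the smallest that 3 against 3 libraries allow). Against siNS Dex, PRMT5 was lower in siHP1γ Dex too (log2 fold change -0.35, adjusted p = 0.00123, edgeR). CBX3 in siPRMT5 Dex did not pass (0.16, adjusted p = 0.120, edgeR). From Eth to Dex, PRMT5 rose by 0.515 in siPRMT5 cells and CBX3 by 0.48 in siHP1γ cells. Without Dex, the log2 fold change of siPRMT5 over siHP1γ cells was -4.82 for PRMT5 and 4.495 for CBX3. The files also list 8 pseudogenes of CBX3, which overlaps HNRNPA2B1, and 1 of PRMT5, which overlaps an antisense gene, so the low remaining counts of both targets are uncertain. NR3C1, the gene of GR, was at 145, 176 and 153 CPM in siPRMT5 Dex and 149, 129 and 116 CPM in siHP1γ Dex. These values overlapped (exact p = 0.2), and the call of the fit (log2 fold change 0.27, SE 0.0891, adjusted p = 0.0152) was lost without siPRMT5 Dex replicate 2, where the log2 fold change was 0.18, or without siHP1γ Dex replicate 3, where it was 0.19.

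The cells carried the markers of the line, with VIM at 7634, 7194 and 7834 CPM in siPRMT5 Dex and 5444, 5810.0 and 6122 CPM in siHP1γ Dex, and with PGR, CDH1 and CD3E at 0 in all 6 libraries. The 7 markers of the line summed to 8862 to 9515 CPM in siPRMT5 Dex and to 7437 to 8150 CPM in siHP1γ Dex. VIM made up most of these sums. Of the 7, 2 were higher in siPRMT5 Dex, 2 were lower, AXL among them (log2 fold change -1.75), and 3 did not pass. Over all genes, 24.4% were higher and 25.5% lower. The 3 receptor genes that define triple-negative status summed to 26.6 to 31.7 CPM and to 29.6 to 32.5 CPM, respectively, and 1 of them, which made up nearly all of these sums, had enough counts for a test and did not pass it. Of the other marker lists, the 4 endothelial genes summed to 19.8 to 22.6 CPM in siPRMT5 Dex and to 10.6 to 11.8 CPM in siHP1γ Dex, with CDH5 and VWF at no more than 4 counts in any library. The other 2 were higher in siPRMT5 Dex, namely KDR (log2 fold change 1.11, SE 0.138, adjusted p = 2.91e-07) and PECAM1 (log2 fold change 0.73, SE 0.171, adjusted p = 9.38e-04), with KDR at 13.6, 15.4 and 14.4 CPM against 6.85, 6.36 and 6.96 CPM. The 5 fibroblast genes summed to 12.4 to 14.3 CPM and to 7.16 to 11.8 CPM, respectively, with LUM at 0, and the 5 luminal epithelial genes to 22.0 to 23.3 CPM and to 27.0 to 28.8 CPM. The 5 leukocyte genes summed to at most 3.32 CPM in any of the 6 libraries. The part of other cell types in the differences was not tested.

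The 2 depletions left the Dex-treated cells with widely different transcriptomes. Of the 15298 genes tested, 7635 (49.9%) were called, 3730 (24.4%) higher in siPRMT5 Dex and 3905 (25.5%) lower. The 3 values of one group lay outside the range of the other for 7965 genes (52.1%). Most differences were modest, with a median size of 0.55 on the log2 scale among called genes. A fold change of at least 1.5 was reached by 1390 higher and 2126 lower genes. The larger the difference, the more often the gene was lower in siPRMT5 cells: between 2-fold and 4-fold there were 463 higher and 822 lower genes, and beyond 4-fold 58 higher and 135 lower genes.

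The 12 genes with the largest increases in siPRMT5 Dex over siHP1γ Dex had varied functions. HPGD, the dehydrogenase that inactivates prostaglandins, was at 12.02, 12.9 and 11.8 CPM in siPRMT5 Dex and 1.26, 0.880 and 0.564 CPM in siHP1γ Dex (log2 fold change 3.72, SE 0.268, adjusted p = 1.8e-11). VIPR1, a receptor of vasoactive intestinal peptide, was at 33.3, 25.4 and 34.4 CPM against 3.62, 3.62 and 3.38 CPM (log2 fold change 3.12, SE 0.142, adjusted p = 4.01e-15). SCML1, a protein of the Polycomb family, was at 111, 133 and 106 CPM against 23.5, 16.3 and 15.7 CPM (log2 fold change 2.65, SE 0.121, adjusted p = 4.55e-15). In all 3 genes, even the lowest siPRMT5 library exceeded the highest siHP1γ library several times over. PDZD2, a protein with several PDZ domains, was the most abundant of the 12 genes, at 217, 258 and 261 CPM against 40.2, 48.1 and 37.4 CPM (log2 fold change 2.55). GCNT1, which branches O-linked glycans, was at 145, 149.7 and 158 CPM against 31.6, 24.2 and 22.4 CPM (log2 fold change 2.53). NEDD9, a scaffold protein of focal adhesions, was at 14.5, 14.9 and 17.2 CPM against 2.60, 2.93 and 2.54 CPM (log2 fold change 2.52). The remaining 6 genes were NEBL, ADAMTS15, NNMT, ADSL, BTG3 and PIK3R3, with log2 fold changes between 2.21 and 2.62. Among them, NNMT methylates nicotinamide, ADSL is an enzyme of purine synthesis and PIK3R3 is a regulatory subunit of PI3-kinase.

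The 12 genes with the largest decreases had varied functions too. PAEP, which encodes the secreted glycoprotein glycodelin, was at 1.86, 1.15 and 1.92 CPM in siPRMT5 Dex and 25.3, 25.6 and 25.9 CPM in siHP1γ Dex (log2 fold change -3.98, SE 0.192, adjusted p = 1.06e-14). CA12, a membrane-bound carbonic anhydrase, was at 2.44, 2.38 and 2.72 CPM against 27.2, 28.2 and 30.9 CPM (log2 fold change -3.52, SE 0.127, adjusted p = 4.54e-17). EHD2, an ATPase of caveolae, was at 22.4, 18 and 19.2 CPM against 142, 158 and 153 CPM (log2 fold change -2.93, SE 0.0941, adjusted p = 4e-18). The spread within each group was small next to these gaps, and the choice of the genes required values without overlap. CYB5R3, an NADH-cytochrome b5 reductase, was the most abundant of the 12, at 82.6, 70.1 and 76.8 CPM against 432, 473 and 513 CPM (log2 fold change -2.63). CHMP3, a subunit of the ESCRT-III membrane-cutting complex, was at 16.4, 18 and 14.7 CPM against 107, 93.8 and 91.4 CPM (log2 fold change -2.56). FGFRL1, an FGF receptor without a kinase domain, was at 8.70, 8.22 and 11.5 CPM against 50.2, 79.5 and 84.05 CPM (log2 fold change -2.92). Relative to its mean, it had the widest spread of the 12 in siHP1γ Dex, where replicate 1 lay well below the other two. The remaining genes were APCDD1L, ZNF385A, the cytokine gene IL11, the adaptor gene NCK2, TP53I11 and MARCKSL1, with log2 fold changes between -3.75 and -2.57.

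**Figure D1:**
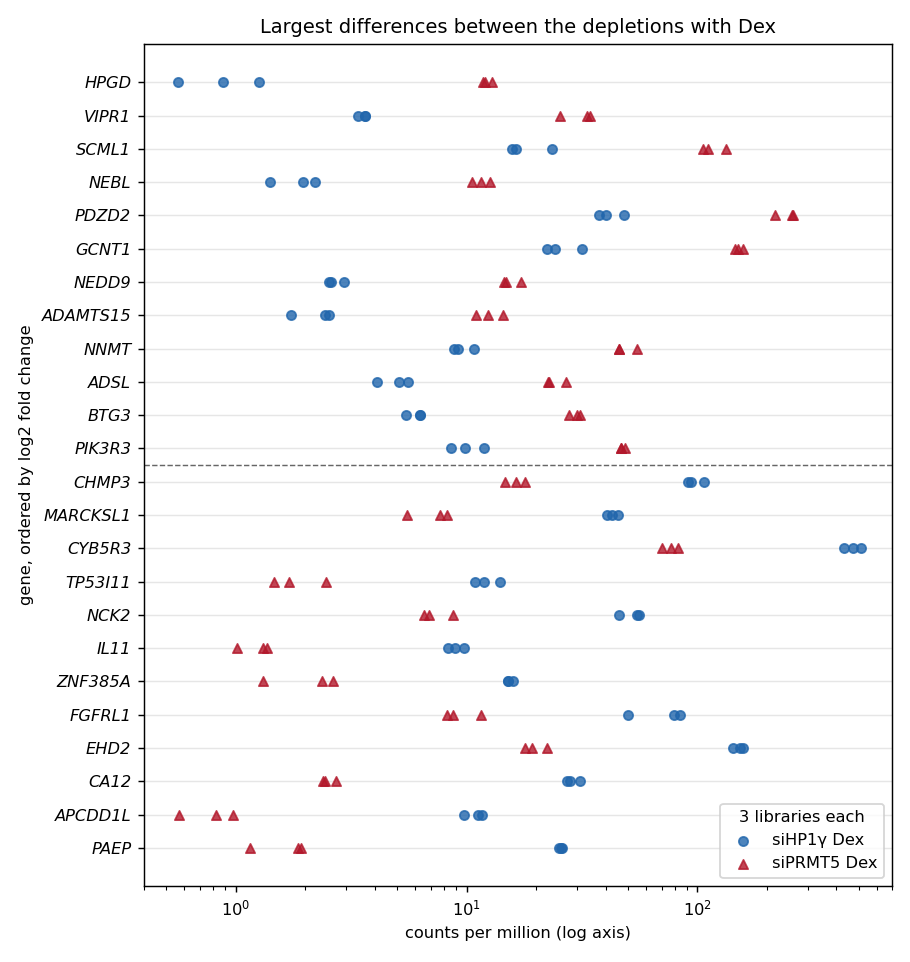
CPM (log axis) of the 12 genes most increased and the 12 most decreased in siPRMT5 Dex over siHP1γ Dex, with 1 point per library (circles, siHP1γ Dex; triangles, siPRMT5 Dex; 3 libraries each; dashed line, change of direction). In all 24 genes the values of both groups lie apart, which the choice of the genes required.

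Genes that respond to GC differed between the depletions in a direction that followed the response. They were taken from siNS cells alone, as genes that changed with Dex at least 1.5-fold with an adjusted p under 0.01, which gave 252 induced and 162 repressed genes chosen on libraries that do not enter the contrast. Of the 252 induced genes, 159 (63.1%) were higher in siPRMT5 Dex than in siHP1γ Dex, against 24.4% of all genes, and 36 (14.3%) were lower, against 25.5%. Their median log2 fold change was 0.48, while that of all genes was 0. Of the 162 repressed genes, 98 (60.5%) were lower and 24 (14.8%) higher, with a median of -0.49. With Dex, GC-induced genes thus stood higher, and GC-repressed genes lower, in PRMT5-depleted than in HP1γ-depleted cells.

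Without Dex, the induced genes showed no such lean. In siPRMT5 Eth against siHP1γ Eth, where 23.4% of all genes were higher and 25% lower, 75 of the 252 induced genes were higher and 84 lower, with a median log2 fold change of -0.06. The 162 repressed genes already leaned down without Dex, with 39 higher and 77 lower and a median of -0.26. The response itself was larger in siPRMT5 cells: the 252 induced genes rose by a median log2 fold change of 1.19 from Eth to Dex in siPRMT5 cells and of 0.66 in siHP1γ cells. The 162 repressed genes changed by a median of -0.79 in siPRMT5 cells and of -0.55 in siHP1γ cells. No siNS library enters these values.

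**Figure D2:**
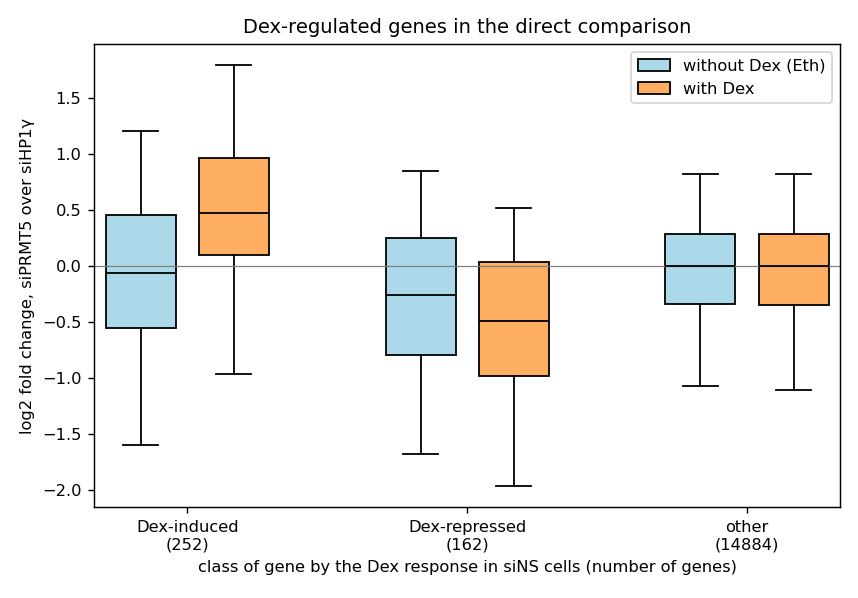
Log2 fold change of siPRMT5 over siHP1γ cells without Dex (blue) and with Dex (orange), for genes grouped by their Dex response in siNS cells (box, quartiles and median; whiskers, 5th to 95th percentile of genes). The median of the induced genes moves from -0.06 without Dex to 0.48 with Dex, that of the repressed genes from -0.26 to -0.49, and that of the other genes stays at 0.

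The best-known targets of GR were among them. Of 28 textbook GC-induced genes that could be tested, 23 (82.1%) were higher in siPRMT5 Dex and 1 was lower, against 24.4% and 25.5% of all genes, with a median log2 fold change of 0.69. FKBP5, a co-chaperone that lowers the affinity of GR for its ligand, was at 680.5, 696 and 776 CPM in siPRMT5 Dex and 266, 248 and 236 CPM in siHP1γ Dex (log2 fold change 1.52, SE 0.0720, adjusted p = 7.6e-15). TSC22D3, which encodes the anti-inflammatory protein GILZ, was at 430.1, 362 and 424 CPM against 127, 128 and 147 CPM (log2 fold change 1.60, SE 0.0914, adjusted p = 2.43e-13). SGK1, a serum- and GC-regulated kinase, was at 143, 138 and 136 CPM against 60.1, 54.9 and 49.9 CPM (log2 fold change 1.33, SE 0.0731, adjusted p = 1.13e-13). No library of one group reached the other in these genes. MT1E, a metal-binding metallothionein, was at 807, 723 and 719 CPM against 350.3, 317 and 308 CPM (log2 fold change 1.21, SE 0.0720, adjusted p = 5.79e-13), but belongs to a family of near-identical genes, between which reads can be split. Without Dex, FKBP5 differed by only 0.24 and MT1E by -0.20 on the log2 scale, while TSC22D3 (0.99) and SGK1 (0.78) were already higher in siPRMT5 Eth. In siNS Dex, the levels were 503 ± 1.90 CPM for FKBP5, 236 ± 36.7 CPM for TSC22D3, 103 ± 1.48 CPM for SGK1 and 488 ± 29.6 CPM for MT1E (mean ± SD, n = 3), between those of both depleted groups.

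**Figure D3:**
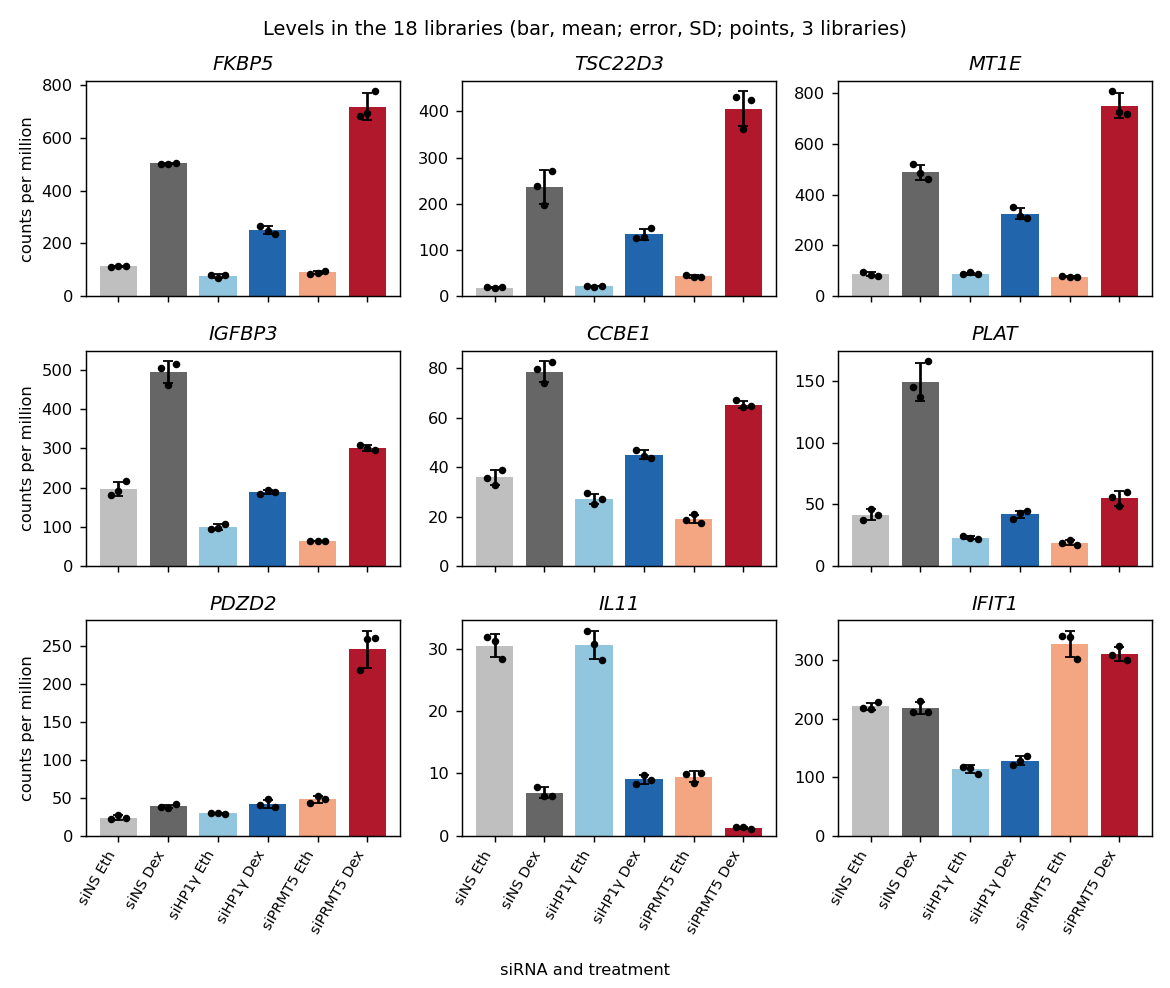
CPM of 9 genes in the 6 conditions (bar, mean; error bar, SD; points, the 3 libraries). FKBP5, TSC22D3 and MT1E with Dex are highest in siPRMT5 and lowest in siHP1γ cells, IGFBP3, CCBE1 and PLAT with Dex are below siNS in both depletions, and IFIT1 differs between the depletions with and without Dex.

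Other Dex-induced genes with large differences were VIPR1, NEBL, PDZD2, GCNT1 and NEDD9, described above. A minority went the other way. LHX6, a homeobox gene, was at 2.83, 2.79 and 2.15 CPM in siPRMT5 Dex and 14.01, 13.4 and 15.7 CPM in siHP1γ Dex (log2 fold change -2.45). JDP2, a repressor of AP-1, was at 7.04, 5.59 and 7.13 CPM against 23.1, 23.5 and 28.1 CPM (log2 fold change -1.93). LRRC8A, the essential subunit of the volume-regulated anion channel, was at 100.1, 100.5 and 114 CPM against 319, 382 and 393 CPM (log2 fold change -1.80). B3GNT5, a glycosyltransferase of lacto-series glycolipids, and the noncoding gene AL161431.1 followed with log2 fold changes of -1.78 and -1.54. All 5 were also lower without Dex in siPRMT5 cells, with log2 fold changes of -1.60 for LHX6, -2.46 for JDP2, -2.11 for LRRC8A, -2.16 for B3GNT5 and -2.23 for AL161431.1, so their difference was not one that appeared with Dex.

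Among 17 tested inflammatory genes that GCs are known to repress, 9 (52.9%) were lower in siPRMT5 Dex, against 25.5% of all genes, and none was higher, with a median log2 fold change of -0.51. The chemokine gene CXCL1 was at 5.87, 6.82 and 4.75 CPM in siPRMT5 Dex and 22.2, 17.8 and 18.1 CPM in siHP1γ Dex (log2 fold change -1.72, SE 0.149, adjusted p = 5.17e-10). The chemokine gene CXCL8 was at 15.4, 16.03 and 17.2 CPM against 41.3, 30.3 and 34.4 CPM (log2 fold change -1.13), and the cytokine gene IL1A at 35.6, 32.9 and 29.9 CPM against 92.96, 86.4 and 92.04 CPM (log2 fold change -1.46). IL11, a cytokine of the IL-6 family, was at 1.37, 1.31 and 1.02 CPM against 8.34, 9.78 and 8.93 CPM (log2 fold change -2.84, SE 0.186, adjusted p = 3.01e-12). In all 4 genes the siHP1γ libraries were the high ones. Unlike the induced genes, these genes were low in siPRMT5 cells without Dex too. In siPRMT5 Eth, 14 of the 17 were lower, with a median of -0.87, where 25% of all genes were lower. In siNS Dex, CXCL1 was at 6.13 ± 1.02 CPM, within the range of siPRMT5 Dex, and CXCL8 at 11.9 ± 0.0522 CPM, below both depletions. IL11 was at 6.88 ± 0.852 CPM in siNS Dex, between them (mean ± SD, n = 3). IL1A, CXCL8 and IL11 were Dex-repressed in siNS cells, but CXCL1 did not change detectably there (log2 fold change -0.15, adjusted p = 0.664, edgeR). From Eth to Dex, CXCL1 rose by 0.66 in siHP1γ cells and by 0.82 in siPRMT5 cells. IL1A fell in siHP1γ cells (-0.60), while its value in siPRMT5 cells did not pass (-0.03, adjusted p = 0.90, edgeR).

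Of the Dex-repressed genes of siNS cells, the 5 largest decreases also comprised ADAMTS6, TAGLN3, RNF182 and the antisense RNA gene DLGAP1-AS2. ADAMTS6, a secreted metalloprotease, was the most abundant, at 57.8, 59.8 and 51.8 CPM against 339.8, 321 and 307 CPM (log2 fold change -2.51, SE 0.0695, adjusted p = 2.02e-19), and had the same difference without Dex (-2.53). The Dex-repressed genes that were higher in siPRMT5 Dex were led by HAS2, a hyaluronan synthase, at 21.99, 22.03 and 20.4 CPM against 9.53, 9.09 and 8.74 CPM (log2 fold change 1.23). MB21D2, the chemokine receptor gene CXCR4, the aldo-keto reductase gene AKR1C3 and ENC1 followed, with log2 fold changes between 0.64 and 1.05.

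Of the genes that the study followed further, CCBE1, IGFBP3 and PLAT were higher in siPRMT5 Dex than in siHP1γ Dex by small margins. IGFBP3, which binds insulin-like growth factors, was at 309.7, 302 and 295 CPM against 183, 194 and 189 CPM (log2 fold change 0.68, SE 0.0700, adjusted p = 1.16e-08). CCBE1, a secreted protein needed for the maturation of VEGF-C, was at 66.96, 64.2 and 64.6 CPM against 47.1, 44.4 and 43.8 CPM (log2 fold change 0.53, SE 0.0810, adjusted p = 5.49e-06). PLAT, the tissue plasminogen activator, was at 55.9, 48.3 and 59.98 CPM against 38.4, 42.7 and 44.2 CPM (log2 fold change 0.39, SE 0.0992, adjusted p = 0.00210). Values did not overlap in any of the 3 genes (exact two-sided permutation test, p = 0.1 each, the smallest possible). Without Dex, the order of IGFBP3 and CCBE1 was the opposite. They were lower in siPRMT5 Eth than in siHP1γ Eth, with log2 fold changes of -0.65 (adjusted p = 1.1e-07, edgeR) and -0.52 (adjusted p = 7.23e-05, edgeR), and PLAT had a value of -0.27 that did not pass (adjusted p = 0.0621, edgeR). The difference between the depletions changed with Dex in all 3, by 1.33 for IGFBP3 (adjusted p = 7.29e-09), 1.05 for CCBE1 (adjusted p = 7.27e-06) and 0.66 for PLAT (adjusted p = 0.0179) by edgeR's test of the interaction. Against siNS Dex, which both comparisons share, the log2 fold changes were -1.39 in siHP1γ Dex and -0.71 in siPRMT5 Dex for IGFBP3, -0.80 and -0.27 for CCBE1, and -1.84 and -1.45 for PLAT. The levels with Dex were thus below those of siNS Dex in both depletions and less so in siPRMT5 cells.

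Most of the difference between the depletions was present without Dex as well. The contrast siPRMT5 Eth against siHP1γ Eth, which shares no library with the Dex contrast, called 7398 genes, 3580 (23.4%) higher and 3818 (25%) lower. Of the 7635 genes called with Dex, 5744 (75.2%) were called in the same direction without Dex, which is 77.6% of the calls without Dex, and 56 (0.733%) were called in the opposite direction. Across the 15298 genes, the log2 fold changes with and without Dex had a Pearson correlation of 0.833 and a Spearman correlation of 0.815, given as a description, since genes are not independent replicates and the libraries share the siRNA pools.

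The difference itself depended on Dex for 321 genes by the interaction test, 197 (1.29%) with a log2 fold change that was higher with Dex and 124 (0.811%) with one that was lower, sign included. At an unadjusted p under 0.05 there were 1694. Of the 252 Dex-induced genes of siNS cells, 82 (32.5%) had a value that was higher with Dex and 2 a lower one. Of the 162 Dex-repressed genes, 25 (15.4%) had a lower one and 4 a higher one. The other 14884 genes made up 111 of the higher and 97 of the lower values.

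FBLN1, which encodes the matrix protein fibulin-1, had the largest such change among genes of at least 5 CPM whose Dex values did not overlap. It was at 11.5, 11.3 and 12.3 CPM in siPRMT5 Dex and 7.08, 7.72 and 8.84 CPM in siHP1γ Dex, but at 1.07, 1.53 and 0.9999 CPM in siPRMT5 Eth and 4.45, 4.21 and 4.86 CPM in siHP1γ Eth. The log2 fold change therefore turned from -1.92 without Dex to 0.57 with Dex (interaction 2.49, standard error 0.299, adjusted p = 8.03e-06, edgeR). CXCR4, the receptor of the chemokine CXCL12, turned in the same way, from -1.26 to 0.80 (interaction 2.06, adjusted p = 2.17e-05, edgeR). It was at 2.58, 2.11 and 3.40 CPM in siPRMT5 Eth and 7.85, 6.27 and 5.67 CPM in siHP1γ Eth. From Eth to Dex, CXCR4 rose in siPRMT5 cells (log2 fold change 1.65, adjusted p = 4.43e-07, edgeR) and had a value of -0.41 in siHP1γ cells that did not pass (adjusted p = 0.202, edgeR). Among the 162 genes repressed in siNS cells, 8 had a positive value from Eth to Dex in siPRMT5 cells. CXCR4 was the 1 gene of these whose rise was called.

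For NEDD9, DAAM2 and AC005840.3 the difference appeared with Dex. NEDD9 was at 1.93, 2.23 and 2.10 CPM in siPRMT5 Eth and 2.02, 1.31 and 1.71 CPM in siHP1γ Eth, where its log2 fold change of 0.32 did not pass (adjusted p = 0.343, edgeR), and reached 2.52 with Dex (interaction 2.20, adjusted p = 1.61e-04). DAAM2, a formin of Wnt signalling, was at 14.7, 16.9 and 20.8 CPM in siPRMT5 Dex and 3.94, 6.45 and 4.61 CPM in siHP1γ Dex, against 0.751, 0.352 and 0.700 CPM and 1.06, 0.748 and 0.721 CPM with Eth (interaction 2.25, adjusted p = 0.0146). The Eth levels of DAAM2 were near the limit of the filter, and its call was lost without siHP1γ Eth replicate 1 (interaction 2.08) or without siPRMT5 Eth replicate 2 (interaction 2.01). AC005840.3, a gene known by its clone name, had an interaction of 2.34. PDZD2 and GCNT1, among the largest differences with Dex, had smaller ones without it, with interactions of 1.85 and 1.23.

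The genes with a lower value with Dex included genes that Dex lowered further in siPRMT5 cells. MARCKSL1, an actin-binding protein related to MARCKS, was at 8.21, 7.64 and 5.54 CPM in siPRMT5 Dex and 45.3, 42.7 and 40.5 CPM in siHP1γ Dex, and at 21.5, 17.3 and 20.0 CPM and 36.3, 40.9 and 44.1 CPM with Eth (interaction -1.53, adjusted p = 1.22e-05, edgeR). IL11 was at 9.87, 8.45 and 10.1 CPM in siPRMT5 Eth and 32.8, 30.8 and 28.2 CPM in siHP1γ Eth (interaction -1.15, adjusted p = 0.00561, edgeR), so that Dex lowered it in both and to the lowest level in siPRMT5 cells. RNF182 and LRATD2 had interactions of -1.06 and -1.05. PTGES, a prostaglandin E synthase, was higher in siPRMT5 cells throughout but less so with Dex, with a log2 fold change of 1.89 without Dex and 0.81 with Dex (interaction -1.08, adjusted p = 0.0118, edgeR), a call that was lost without siHP1γ Eth replicate 1 (interaction -0.95).

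**Figure D4:**
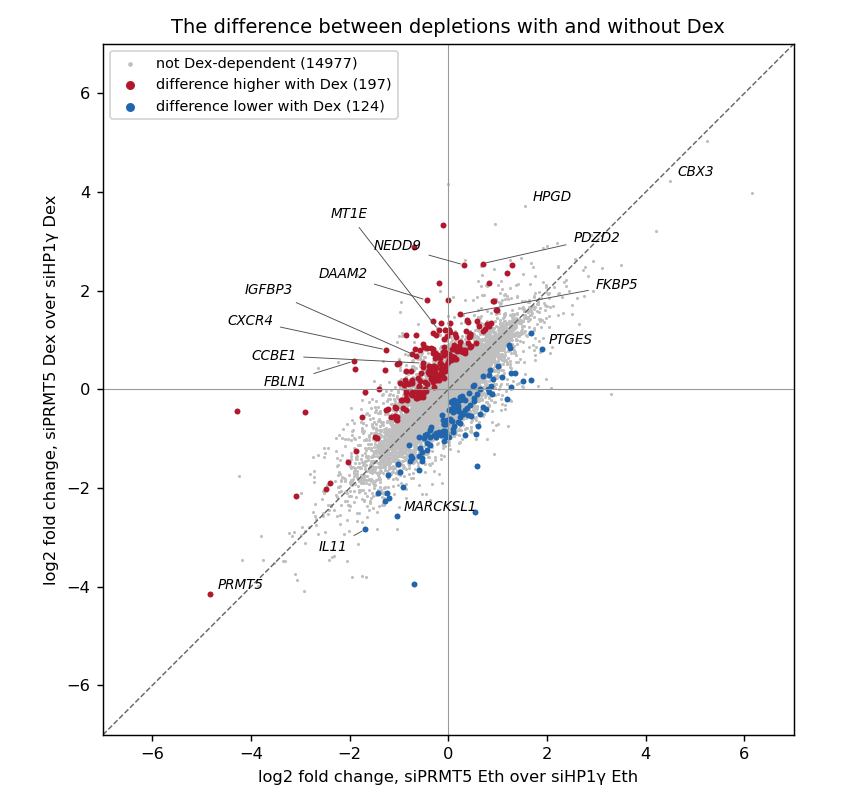
Log2 fold change of siPRMT5 over siHP1γ cells without Dex (x axis) and with Dex (y axis), 1 point per gene, with the diagonal of equal values (dashed). Genes whose difference was higher (red, 197) or lower (blue, 124) with Dex by the interaction test lie off the diagonal, while PRMT5 and CBX3 lie at opposite ends.

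Genes of mitosis leaned strongly toward siPRMT5 Dex. Of 37 tested G2/M genes, 29 (78.4%) were higher and none lower, with a median log2 fold change of 0.47, where 24.4% of all genes were higher and 25.5% lower. Without Dex, 31 of the 37 were higher, where 23.4% of all genes were. CCNA2, which encodes cyclin A2, was at 239, 268 and 239 CPM in siPRMT5 Dex and 124, 108 and 108 CPM in siHP1γ Dex (log2 fold change 1.13, SE 0.0786, adjusted p = 8.93e-12). KIF20A, a kinesin of cytokinesis, was at 243, 249 and 266 CPM against 108, 121 and 121 CPM (log2 fold change 1.11). MKI67, the proliferation marker Ki-67, was at 1581, 2539 and 2434 CPM against 1159, 1309 and 1013 CPM (log2 fold change 0.91), and its 3 siPRMT5 values were spread more widely than those of the other named members. DLGAP5, a spindle protein, was at 317, 368 and 315 CPM against 231, 197 and 189 CPM (log2 fold change 0.70). The genes of G1/S and DNA replication did not share this lean, with 7 of 43 (16.3%) higher and 10 (23.3%) lower. Among them, the ribonucleotide reductase subunit gene RRM2 was higher (0.81), while CHAF1B, GINS2 and CDC45, which act in chromatin assembly and at the replication fork, were lower (-1.21, -0.88 and -0.72). The share of cells in each phase of the cycle was not measured.

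Many G2/M promoters hold the cell cycle genes homology region, a short element bound by the DREAM and MuvB complexes. Its letters TTTGAA were searched on both strands of RefSeq promoters, from 250 bases before to 50 after the start site. They stood in 19 of 30 promoters of the G2/M list (63.3%) and in 15.4% of all promoters. The element is shown for MKI67, whose window holds it in 2 places, for DLGAP5, which has it on both strands, and for CCNB2, the cyclin B2 gene (capitals mark the motif, GRCh38.p14, 5′ to 3′ on the strand of the gene).
MKI67 (chr10:128126435-128126494, minus strand): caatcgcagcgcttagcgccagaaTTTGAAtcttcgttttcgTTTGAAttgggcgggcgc
DLGAP5 (chr14:55191688-55191747, minus strand): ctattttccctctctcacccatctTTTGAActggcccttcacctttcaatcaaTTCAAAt
CCNB2 (chr15:59105093-59105152, plus strand): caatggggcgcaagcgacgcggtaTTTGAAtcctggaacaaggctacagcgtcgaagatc
Among the 947 tested genes outside the list whose promoter held the letters, 299 (31.6%) were higher and 212 (22.4%) lower, against 26.3% and 28.0% of the 10035 tested genes with a promoter in the table.

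Interferon-stimulated genes were higher in siPRMT5 Dex as well, with 21 of 32 tested genes (65.6%) higher and 2 (6.25%) lower, against 24.4% and 25.5% of all genes, and a median log2 fold change of 0.61. Without Dex, 24 of the 32 were higher, against 23.4% of all genes. IFIH1, the cytosolic sensor MDA5 of double-stranded RNA, was at 32.9, 36.7 and 30.9 CPM in siPRMT5 Dex and 9.29, 9.19 and 9.03 CPM in siHP1γ Dex (log2 fold change 1.87, SE 0.113, adjusted p = 7.24e-13). IFIT1, which binds foreign RNA ends, was at 309, 323 and 299 CPM against 120.4, 128 and 136 CPM (log2 fold change 1.28, SE 0.0701, adjusted p = 1.12e-13). OASL was at 39.5, 36.7 and 37.9 CPM against 12.3, 14.2 and 11.4 CPM (log2 fold change 1.59) and IFIT3 at 409, 413 and 377 CPM against 216, 227 and 226 CPM (log2 fold change 0.84). Against the shared siNS Dex libraries, IFIT1 had log2 fold changes of -0.77 in siHP1γ Dex and 0.51 in siPRMT5 Dex, and IFIH1 of -0.30 and 1.57.

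The interferon-stimulated response element, searched as the letters GAAANNGAAA on both strands, stood in 16 of 25 promoters of this list (64.0%) and in 3.65% of all promoters. Read on the strand of the gene, it appears in the windows below as its reverse complement. It is shown for IFIT1 and IFIH1, 2 of the named members, and for IFIT5, which holds the same letters but was lower in siPRMT5 Dex (log2 fold change -0.31, adjusted p = 0.00259, edgeR).
IFIT1 (chr10:89392483-89392542, plus strand): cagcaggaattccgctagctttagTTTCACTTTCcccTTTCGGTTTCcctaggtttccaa
IFIH1 (chr2:162318808-162318867, minus strand): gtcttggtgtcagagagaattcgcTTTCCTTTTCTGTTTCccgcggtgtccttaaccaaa
IFIT5 (chr10:89414499-89414558, plus strand): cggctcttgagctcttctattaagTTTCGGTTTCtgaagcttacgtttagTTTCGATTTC
Of the 16 members with the element, 12 were higher, 1 was lower and 3 did not pass. Among the 250 tested genes outside the list that held the letters, 82 (32.8%) were higher and 53 (21.2%) lower. Of all 10035 tested genes with a promoter, 26.3% were higher and 28% lower.

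The opposite direction was taken by the genes of the ATF4 stress response and amino acid supply. Of 27 tested genes, 20 (74.1%) were lower in siPRMT5 Dex and 4 (14.8%) higher, against 25.5% and 24.4% of all genes, with a median log2 fold change of -0.57. Without Dex, 21 of the 27 were lower and 1 was higher, where 25% of all genes were lower and 23.4% higher. CHAC1, which degrades glutathione, was at 3.42, 3.45 and 2.83 CPM in siPRMT5 Dex and 17.2, 21.3 and 18.8 CPM in siHP1γ Dex (log2 fold change -2.54, SE 0.157, adjusted p = 9.8e-13). HSPA5, the chaperone BiP of the endoplasmic reticulum, was at 408, 399 and 433 CPM against 914, 971 and 1052 CPM (log2 fold change -1.24, SE 0.0664, adjusted p = 6.73e-14). SLC7A5, a transporter of large amino acids, was at 48.97, 51.95 and 49.5 CPM against 110.2, 118 and 107 CPM (log2 fold change -1.15), and the cystine transporter gene SLC7A11 at 53.2, 66.8 and 49.1 CPM against 132, 105 and 85.3 CPM (log2 fold change -0.93). SLC7A5 was below its level of 209 ± 14.6 CPM in siNS Dex (mean ± SD, n = 3) in both depletions, whereas HSPA5, at 872 ± 32.8 CPM in siNS Dex, was so in siPRMT5 Dex only. The ATF4 element, searched as TGATGNAA on both strands, stood in 6 of 24 promoters of the list (25%) and in 3.67% of all promoters. Of these 6 members, 4 were lower and 2 did not pass. Among the 161 tested genes outside the list that held the letters, 27.3% were higher and 33.5% lower, against 26.3% and 28.0% of all tested genes with a promoter. The element is shown for ASNS, the asparagine synthetase gene with a log2 fold change of -1.42 (adjusted p = 8.01e-05, edgeR), and for CHAC1.
ASNS (chr7:97872441-97872500, minus strand): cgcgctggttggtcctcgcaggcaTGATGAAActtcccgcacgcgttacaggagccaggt
CHAC1 (chr15:40953238-40953297, plus strand): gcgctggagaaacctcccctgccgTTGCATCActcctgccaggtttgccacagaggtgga
The glucocorticoid response element, searched as the inverted repeat GNACANNNTGTNC, was rare in this window, with 3 of 189 promoters of Dex-induced genes (1.59%) and 0.388% of all promoters. Of the 19 tested genes that held the letters, 6 (31.6%) were higher, 5 (26.3%) lower and 8 did not pass. Over all tested genes with a promoter, 26.3% were higher and 28.0% lower. Of the 3 Dex-induced genes, FOXN3 and TXNIP were higher and MAP3K6 did not pass (log2 fold change 0.26). The element is shown for TXNIP, a regulator of glucose uptake, which was higher in siPRMT5 Dex (log2 fold change 0.66, adjusted p = 2.58e-08, edgeR).
TXNIP (chr1:145996719-145996778, minus strand): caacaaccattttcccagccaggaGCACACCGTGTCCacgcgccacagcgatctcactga

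Among lists of growth and metabolism, cholesterol synthesis and cytosolic ribosomal proteins leaned toward siPRMT5 Dex, against 24.4% higher and 25.5% lower over all genes. Of 25 genes of cholesterol synthesis, 14 (56%) were higher and 2 (8%) lower. INSIG1, which holds the sterol sensor in the endoplasmic reticulum, was at 238, 246 and 225 CPM in siPRMT5 Dex and 137, 113 and 125 CPM in siHP1γ Dex (log2 fold change 0.92), and STARD4, a cholesterol carrier, at 115, 122 and 94.04 CPM against 70.1, 53.97 and 45.6 CPM (log2 fold change 0.96). Of 79 cytosolic ribosomal protein genes, 50 (63.3%) were higher and 3 (3.8%) lower, with a median log2 fold change of 0.27, and these genes have many processed pseudogenes. RPS20 stood out at 996, 893 and 878 CPM against 358, 437 and 448 CPM (log2 fold change 1.16). In siNS Dex it was at 932 ± 73.8 CPM (mean ± SD, n = 3), so that the siHP1γ libraries were the low ones. Mitochondrial ribosomal proteins had no stable lean, with 15 of 74 higher and 8 lower, but 9 higher and 15 lower when scaled by library size alone. Among them, MRPS27 was at 34.5, 33.8 and 31.8 CPM against 110.5, 112 and 111 CPM (log2 fold change -1.73).

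Of 440 tested ZNF genes, many of which encode KRAB-type zinc finger repressors, 189 (43%) were higher in siPRMT5 Dex and 43 (9.77%) lower, against 24.4% and 25.5% of all genes. ZNF678, ZNF583 and ZNF737 were higher by log2 fold changes of 2.06, 1.76 and 1.70, with ZNF678 at 22.1, 30.1 and 22.8 CPM against 7.16, 6.65 and 4.04 CPM. ZNF385A, which is not of the KRAB type, was the largest exception at -2.90. Among SR proteins, hnRNPs and splicing kinases, 18 of 44 (40.9%) were higher and 3 (6.82%) lower, or 5 lower when scaled by library size alone. PTBP2 was at 27.96, 30.5 and 22.6 CPM against 14.5, 9.97 and 10.9 CPM (log2 fold change 1.19) and the kinase gene SRPK1 at 228, 248 and 218 CPM against 486, 460.4 and 429 CPM (log2 fold change -0.98), which put these regulators of splicing on opposite sides.

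The partners of the targets were affected unequally. Among PRMT5 partners and arginine methyltransferases, 5 of 12 (41.7%) were higher and 4 (33.3%) lower, PRMT5 included, against 24.4% and 25.5% of all genes. WDR77, the obligate cofactor MEP50 of PRMT5, was at 36.8, 34.9 and 34.7 CPM in siPRMT5 Dex and 24.6, 24.5 and 25.9 CPM in siHP1γ Dex (log2 fold change 0.50), and the adaptor gene RIOK1 at 81.3, 73.3 and 83.7 CPM against 57.1, 60.9 and 59.1 CPM (log2 fold change 0.43). WDR77 in siNS Dex was at 36.02 ± 3.60 CPM (mean ± SD, n = 3), level with the siPRMT5 Dex libraries. PRMT3 was lower (-0.51) and PRDM1 higher (0.53), the latter call being lost with DESeq2. Of 29 Sm, Lsm and SMN complex genes, whose products include substrates of PRMT5, 10 (34.5%) were higher and 4 (13.8%) lower, with DDX20 at 0.47, LSM11 at 0.40, SNRPE at 0.40 and LSM10 at -0.40 on the log2 scale.

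Among 28 genes of HP1 paralogs and H3K9 methylation, 12 (42.9%) were higher and 4 (14.3%) lower, CBX3 included, against 24.4% and 25.5% of all genes, and 7 were lower when scaled by library size alone. The largest difference after CBX3 was in LMNB1, the nuclear lamina protein lamin B1, at 408, 434 and 448 CPM in siPRMT5 Dex and 119, 112 and 105 CPM in siHP1γ Dex (log2 fold change 1.94, SE 0.0660, adjusted p = 1.39e-17). LBR, the lamin B receptor, which binds HP1 proteins, was at 143, 146 and 124 CPM against 99.1, 71.1 and 67.1 CPM (log2 fold change 0.80). LMNB1 in siNS Dex was at 241 ± 11.6 CPM (mean ± SD, n = 3), between the groups. CBX1, the gene of the paralog HP1β, was at 64.8, 64.3 and 56.4 CPM against 119, 126 and 114 CPM (log2 fold change -0.95, SE 0.0687, adjusted p = 1.73e-11), and thus lower in siPRMT5 cells. Of 22 genes of GR and its chaperones, 7 (31.8%) were higher and 7 lower, but only 3 were higher when scaled by library size alone. PTGES3, the co-chaperone p23 of GR, was at 296, 308 and 269.7 CPM against 139, 118 and 113 CPM (log2 fold change 1.24, SE 0.0949, adjusted p = 5.65e-11), with 276 ± 11.5 CPM in siNS Dex. DNAJB1 and CDC37, other members of the HSP90 and HSP70 systems, were lower (-1.03 and -0.74), and the coactivator gene NCOA3 was higher (0.59).

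Genes of the cell surface and matrix were called in both directions, where 24.4% of all genes were higher and 25.5% lower. In the plasminogen and metalloprotease list, 9 of 30 (30%) were higher, or 5 when scaled by library size alone, and 10 (33.3%) lower. ADAMTS15 was at 12.4, 11.02 and 14.4 CPM in siPRMT5 Dex and 1.73, 2.44 and 2.54 CPM in siHP1γ Dex, and ADAMTS9 at 43.6, 47.8 and 55.7 CPM against 9.76, 11.2 and 12.03 CPM (log2 fold changes 2.50 and 2.16), while ADAMTS6 and the collagenase gene MMP1 were lower (-2.51 and -1.03). These related proteases thus lay on opposite sides of the comparison. Of 15 integrins, 4 (26.7%) were higher and 6 (40%) lower. ITGB1, the β1 subunit shared by most matrix receptors, was at 305, 350.1 and 317 CPM against 653, 618 and 619.8 CPM (log2 fold change -0.96) and ITGA3 was lower too (-0.97), while ITGAV and ITGA10 were higher (0.89 and 1.11). Of 35 matrix genes, 12 (34.3%) were higher and 11 (31.4%) lower, with LOXL1 at -0.95, the collagen gene COL1A1 at 0.87 and the laminin gene LAMA2 at 0.84.

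The receptor tyrosine kinase gene AXL, a YAP/TAZ target and marker of the mesenchymal state, was at 195, 191 and 182 CPM in siPRMT5 Dex and 640.3, 626 and 642 CPM in siHP1γ Dex (log2 fold change -1.75, SE 0.0631, adjusted p = 4.54e-17), with the same difference without Dex (-1.74). Of the 14 EMT genes tested, 2 were higher and 3 lower, with SNAI1 at 3.62, 2.79 and 3.51 CPM against 7.71, 8.31 and 10.3 CPM (log2 fold change -1.42). Both that were higher, VIM (0.38) and KRT8 (0.30), mark different cell states, and the values of KRT8 overlapped, at 257, 222 and 266 CPM against 167, 205 and 234 CPM. Scaled by library size alone, 1 EMT gene was higher and 5 were lower. Genes of EGF and FGF signalling were more often lower, with 15 of 28 (53.6%) lower and 7 (25%) higher, against 25.5% and 24.4% of all genes. EGFR was at 114, 154 and 145 CPM against 219, 203 and 181 CPM (log2 fold change -0.55), the transcription factor gene ETV4 at 21.2, 20.96 and 17.5 CPM against 57.1, 52.8 and 54.4 CPM (-1.46), and FGF1 and the immediate early gene EGR1 had log2 fold changes of -1.85 and -1.06. Of 25 YAP/TAZ targets and Hippo kinases, 12 (48%) were higher and 7 (28%) lower. F3, the tissue factor gene, was at 306, 294 and 314 CPM against 139.7, 128 and 131 CPM (log2 fold change 1.20, SE 0.0883, adjusted p = 2.82e-11) but did not differ detectably without Dex (-0.06, adjusted p = 0.627, edgeR). VGLL4 and LATS1, restrainers of YAP, were higher (1.04 and 0.95).

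In the TGF-β pathway, 12 of 31 genes (38.7%) were higher and 11 (35.5%) lower, against 24.4% and 25.5% of all genes. The co-receptor gene TGFBR3 was at 119, 138 and 123 CPM in siPRMT5 Dex and 45.2, 44.8 and 39.9 CPM in siHP1γ Dex (log2 fold change 1.55), and the BMP target gene ID1 was higher too (1.22), whereas BAMBI and BMP4 were lower (-0.78 and -0.69). In the IGF axis, 7 of 14 (50%) were higher and 4 (28.6%) lower. IGFBP4 was at 404, 347 and 371 CPM against 164, 209.9 and 195 CPM (log2 fold change 0.98), and the insulin receptor gene INSR and IGFBP1 were higher by 0.84 and 0.64. Of 38 genes of glycolysis and hypoxia, 13 (34.2%) were higher and 11 (28.9%) lower. Without Dex, 17 were higher and 6 lower, where 23.4% of all genes were higher and 25% lower. The difference was higher with Dex in 1 of the 38 and lower in 6, against 1.29% and 0.811% of all genes. SLC2A1, the glucose transporter GLUT1, was at 58.4, 60.4 and 57.7 CPM against 193, 187 and 191 CPM (log2 fold change -1.69, SE 0.0629, adjusted p = 6.33e-17) and NDRG1 was lower too (-1.34), while the peptide hormone gene ADM was at 61.7, 50.1 and 58.3 CPM against 14.2, 15.3 and 15.9 CPM (log2 fold change 1.90).

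Of 25 p53 targets, 12 (48%) were higher and 7 (28%) lower, against 24.4% and 25.5% of all genes. MDM2, which degrades p53, was at 71.7, 80.2 and 71.3 CPM in siPRMT5 Dex and 46.05, 38.3 and 34.97 CPM in siHP1γ Dex (log2 fold change 0.90), and TP53INP1 and PMAIP1 were higher (0.87 and 0.83) while BTG2 was lower (-0.94). Of 16 genes of the BCL2 family and its neighbours, 7 (43.8%) were higher and 6 (37.5%) lower. MCL1, a survival protein, was at 1118, 1173 and 1082 CPM against 646, 567 and 543 CPM (log2 fold change 0.94, SE 0.0700, adjusted p = 3.15e-11), with 1003 ± 64.9 CPM in siNS Dex, and BMF, a pro-apoptotic member, at 9.38, 10.1 and 11.2 CPM against 2.44, 3.62 and 3.48 CPM (log2 fold change 1.70). BCL2L2 was lower (-0.77). Among 29 histone genes, 4 (13.8%) were higher and 7 (24.1%) lower, with H2BC21 at -1.22, H2AC6 at -0.84, and H3-3A at 0.93, and histone genes share near-identical copies. Of 30 clustered protocadherins, 4 (13.3%) were higher and 6 (20%) lower, with PCDHGC3 at -0.53 and PCDHB2 at -0.46. Neither histones nor protocadherins were called more often than all genes in either direction.

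For some genes, the siNS Dex level lay between the depletions. The siNS Dex libraries enter both values below, which are given side by side. Among genes whose siNS Dex values did not overlap with either depleted group, SCML1 had log2 fold changes against siNS Dex of -1.91 in siHP1γ Dex and 0.74 in siPRMT5 Dex, GCNT1 of -1.52 and 1.005, and ADSL of -1.70 and 0.61. For these 3 genes the larger part of the gap lay on the side of HP1γ depletion. PAEP had values of 0.62 and -3.36, CA12 of 0.76 and -2.76, and IL11 of 0.38 and -2.46, with the larger part on the side of PRMT5 depletion. VIPR1 (-0.71 and 2.41), NNMT (-0.65 and 1.70), APCDD1L (1.41 and -2.34) and MARCKSL1 (0.90 and -1.67) were the other genes named by the rule, which took the 5 largest differences in each direction among genes of this kind.

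The genes on both sides of the comparison also differed in base composition, which the rule did not use. In GENCODE 44, 13500 of the 15298 tested genes (88.2%) were found by symbol. The median GC content of their transcripts was 44.8% for genes higher in siPRMT5 Dex, 49.8% for genes lower and 48.1% for genes that did not pass. In the quartile of lowest GC content, from 30.7% to 41.7%, 33.7% were higher and 20.6% lower. In the quartile of highest GC content, from 55.8% to 76.0%, 16.0% were higher and 32.9% lower. The median log2 fold change moved from 0.09 to -0.13 across these quartiles with Dex and from 0.11 to -0.10 without. The number of exons had no such relation, with a median log2 fold change between -0.02 and 0.01 in every quartile. The part of base composition in the differences of single genes was not tested.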

How the data were processed

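RNA of 18 libraries (3 siRNA pools, Eth or Dex, 3 replicates each) was prepared with a Lexogen kit and sequenced on an Illumina NextSeq. The authors aligned the reads to hg38 with Bowtie2 2.4.2 and counted them per gene with HTSeq 0.9.1, and the raw counts deposited by the authors were used. The annotation and the strand setting of the counting are not given in the sources used here. All rows of the files named a gene. A table of the authors' own comparisons (DESeq2 2.11.40.7 in Galaxy, with fold changes and adjusted p-values) was not used.

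Libraries held 8682992 to 12472381 counts. Genes were filtered with filterByExpr, scaled by TMM and fitted with edgeR 4.0.16 (R 4.3.3) by the quasi-likelihood test, with 1 mean per condition over all 18 libraries and 12 residual degrees of freedom, for 15298 of 60642 symbols, with Benjamini-Hochberg adjustment. SEs were derived from the fold change and its F value. Interactions compared the depletions with and without Dex. The fit was tested on simulated counts. Single genes had exact permutation tests. No chance test was made over lists.

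The 12 largest changes per direction among called, non-overlapping genes of at least 5 CPM were named. The same limits held for the 5 largest Dex dependences per direction, called by the interaction and non-overlapping with Dex. They also held for 5 genes per Dex class and direction, and 5 per direction with siNS Dex in between. Members of 28 lists were named too. These members, lists and rules were chosen with earlier results of these data known. Promoters and printed windows were chosen after values were seen, from RefSeq (GRCh38.p14, 27305 promoters), and gene positions came from GENCODE 44. Alternatives were other scalings, filters, library sets, DESeq2 1.42.0, thresholds, a replicate block and leaving out each replicate.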

Additional observations from a re-analysis of the deposited data

Results flagged for a closer look

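The difference between siPRMT5 and siHP1γ cells changed with Dex, by the interaction test of edgeR, in the 10 genes below. The naming rule picked the 5 largest changes in each direction among called genes of at least 5 CPM. It also required that the Dex values of the depletions did not overlap. Genes whose depletions differed without Dex but overlapped with Dex were therefore not named, whatever the size of their change. The log2 fold change of siPRMT5 over siHP1γ cells was higher, sign included, with Dex by 2.49 in FBLN1, 2.34 in AC005840.3, 2.25 in DAAM2, 2.20 in NEDD9 and 2.06 in CXCR4. The change was negative in MARCKSL1 (-1.53), IL11 (-1.15), PTGES (-1.08), RNF182 (-1.06) and LRATD2 (-1.05). In FBLN1 and CXCR4 the depletions changed their order with Dex, and both genes were called in opposite directions with and without it, as were 53 of the 321 genes with such a change. Dex levels in FBLN1, CXCR4, NEDD9 and DAAM2 were under 25 CPM in every library. The cause was not tested in any of the 10 genes.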

How the results depend on the processing

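Of the named genes, the fold changes of the Dex contrast and the 10 interactions above kept their sign under every alternative in which they could be computed, while other interactions and the fold changes without Dex, against siNS Dex and from Eth to Dex were not recomputed. The 7635 calls of the Dex contrast ranged from 5620 (DESeq2 on 6 libraries) to 7684 (replicate block), and from 6853 to 7442 without 1 replicate. A 1.5-fold minimum left 3516. With a 2-fold Dex response in siNS cells, 96 induced genes were higher and 13 lower, against 159 and 36 at 1.5-fold. Of the repressed genes, 5 were higher and 37 lower, against 24 and 98 at 1.5-fold. The counts fell since fewer genes enter the classes. The sizes of the 2-fold classes are not given here, so these counts cannot be read as shares. Over all genes, 24.4% were higher and 25.5% lower. The 321 Dex-dependent genes were 236 to 384 without 1 replicate, 341 with DESeq2 and 230 on 12 libraries. The replicate block gave 7684, 7417 and 315 calls with Dex, without Dex and for the dependence. Deviations from the group mean correlated by -0.131, -0.0268 and 0.144 between same-numbered replicates, and by -0.316 to 0.315 between differently numbered ones. With 3 libraries per group, these values cannot show whether samples of the same number were prepared together. Scaling by library size alone shifted the median gene by -0.07 on the log2 scale and lowered the share of calls that were higher in siPRMT5 Dex from 48.9% to 39.5%. Calls were lost under at least 1 alternative for NR3C1, PRDM1, KRT8, DAAM2 and PTGES. Symbols below the count filter were not tested.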
